A study of Mus musculus with 96 samples.

Results

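The 24 cells with the highest and the 24 cells with the lowest expression of mitotic genes were compared among 96 single daughter cells of horizontal basal cells (HBCs), the reserve stem cells of the olfactory epithelium (OE). For each cell, a cycle score was taken as the mean of log2(CPM + 1) over 9 genes, Mki67, Cdk1, Cdc20, Ccnb1, Aurka, Aurkb, Plk1, Cenpe and Cenpa, where CPM is the count of a gene divided by the sum over all genes of that cell and scaled to 1e6. The cells were thus selected on a measured value, and the high-score and low-score groups are not conditions of the study. All differences between them are given as descriptions of these 48 cells, without tests. The remaining 48 cells are called middle cells.

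All cells came from wild type mice of 6 to 8 weeks, whose OE was taken 2 days after an injection of methimazole, a drug that ablates the OE and activates HBCs. HBCs were grown in culture on an extracellular matrix that the labels do not name, and both daughters of a division were picked by mouth pipette soon after it, as 48 pairs. No label names the mouse or the culture of a cell, so that the 96 cells stand for 1 sample of 1 condition, and SDs below are over cells. RNA was captured by its poly(A) tail and amplified by the G&T-seq protocol without molecular identifiers, and every lysate received a spike-in of synthetic ERCC transcripts.

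As background, cells that prepare to divide switch on their genes in waves. Around the entry into S phase, E2F transcription factors drive the genes for DNA replication. In G2, B-MYB, FOXM1 and the DREAM complex act on the promoters of a later wave, which encodes the cyclins, kinases, motors and kinetochore proteins of mitosis. The score genes belong to the later wave. Mki67 coats mitotic chromosomes, Cdk1 with cyclin B1 (Ccnb1) triggers entry into mitosis, Aurka, Aurkb and Plk1 are mitotic kinases, Cdc20 activates the anaphase-promoting complex, Cenpa is the histone H3 variant of centromeres and Cenpe a kinetochore motor. HBCs are marked by the transcription factor p63 (Trp63) and by keratins 5 and 14. They rest in the undamaged OE and enter the cell cycle after severe injury.

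The sum of counts over genes lay between 29454150 and 44849003 in single cells. The groups differed in library measures as well as in score. ERCC transcripts took a median of 2.66% of the counts of high-score cells, 3.07% in middle cells and 3.61% in low-score cells, and the counts on genes were a median of 36.7, 31.6 and 26.7 times those on ERCC transcripts. The median number of genes with a count was 13056.5 in high-score, 12870 in middle and 12526.5 in low-score cells. Mitochondrial transcripts took 2.18%, 1.80% and 2.14% of the counts on genes. The part of these measures in the differences below was not tested. Differences were therefore also computed on counts scaled to the spike-in.

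The score ranged from 7.80 to 9.08 in high-score cells with a median of 8.42, from 5.16 to 7.76 in middle cells with a median of 6.15, and from 1.28 to 5.00 in low-score cells with a median of 3.19. The scores ran without a break across both borders: the cells at ranks 24 and 25 had 7.80 and 7.76, and those at ranks 72 and 73 had 5.16 and 5.00. When the cells were ranked by 8 of the score genes, 21 to 23 of the 24 high-score and 22 to 24 of the 24 low-score cells were chosen again, and the difference of the gene left out was 3.85 to 5.57 on the log2 scale. Leaving out any 1 score gene thus kept most cells of both groups, in part because the other 8 genes of the score stayed the same.

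Sister cells had similar scores. Of the 24 high-score cells, 18 had a high-score sister, and of the 24 low-score cells, 18 had a low-score sister. The groups are therefore made of 9 pairs with both cells high, 9 pairs with both cells low, 5 pairs with a high and a middle cell, 5 with a middle and a low cell, and 1, pair 17, with a high and a low cell. Another 19 pairs lay wholly in the middle. The median difference in score between sisters was 0.644 over 48 pairs, and the share of the variance in score that lay between pairs was 0.745 as an intraclass correlation. In pairs with both cells high, sisters differed by a median of 0.250 and at most by 0.902, and in pairs with both cells low by a median of 0.962 and at most by 1.71. These differences cannot be compared between the kinds of pair, since the pairs were sorted by the same scores. The scores of high-score cells, 7.80 to 9.08, also span a narrower range than those of low-score cells, 1.28 to 5.00. The largest difference of all was 5.40, in pair 46, with a middle and a low cell. Because sisters share their mother cell, the 24 cells of a group are fewer than 24 independent cells.

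**Figure D1:**
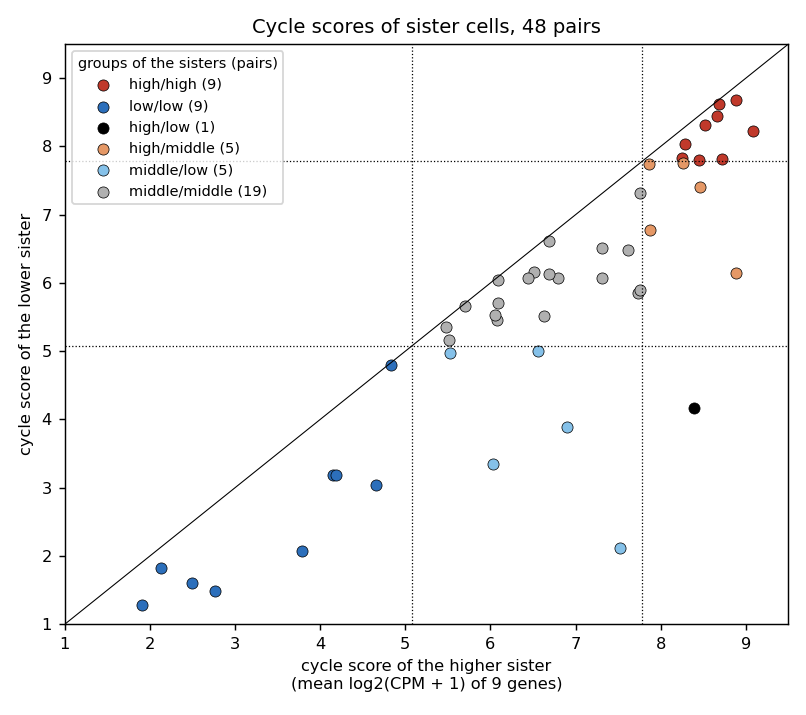
Cycle scores of both sisters in each of 48 pairs, with the higher sister on the x axis and the lower on the y axis, both in mean log2(CPM + 1) of 9 genes. Points are pairs, coloured by the groups of their cells, dotted lines mark the borders of the groups and the diagonal marks equal scores. High/high pairs lie close to the diagonal, and pair 17, in black, joins a high-score to a low-score cell.

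By the names of the deposited tables, the cells fall into 12 sets of 8, or 4 pairs. Between 0 and 5 cells of a set were high-score and between 0 and 7 were low-score, so the groups and the sets are partly entangled. The comparison below was also made with the 2 highest and 2 lowest cells of each set, so that sets were balanced. These cells were again chosen by the score, and 16 of the high-score and 15 of the low-score cells were among them. They gave 1019 genes higher and 385 lower. The part of the sets in the differences was not tested.

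Over the 14463 genes with at least 10 counts in at least 10% of the 96 cells, 1373 genes (9.49%) were higher in high-score cells by 1 or more in mean log2(CPM + 1), which is about a doubling, and 406 (2.81%) were lower by as much. These shares describe cells chosen by 9 of the same genes, and nothing is read from them. The same holds for larger differences: of the 14463 genes, 127 were higher by 3 or more, among them the 9 score genes, and 2 were lower by 3 or more. The median difference over all genes was 0.10. Scaled to the spike-in it was 0.35, with 2363 genes higher and 210 lower, so that 91.8% of the genes past the threshold were higher, against 77.2% on CPM. After this shift was taken off, 1196 were higher and 569 lower, or 67.8% higher. Of the 1373 higher genes, 110 are in the 6 lists of cell cycle genes used here and 16 in the other lists.

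In 4 genes (0.0277%) every high-score cell lay above every low-score cell, and in no gene (0%) did every high-score cell lie below them. They were Kif11, Cenpe, Top2a and Ube2c. Kif11 (ENSMUSG00000012443, chromosome 19 of GRCm38 from 37376403 to 37421859) encodes the kinesin that pushes the spindle poles apart. It had 70.9 to 518 CPM in high-score cells with a median of 206, and 0 to 48.2 CPM in low-score cells with a median of 0.479. Its mean was 54.2-fold higher in high-score cells, and its difference of 6.77 on the log2 scale (SD over cells 0.68 in high-score and 1.45 in low-score cells, n = 24 each) was the largest of all 14463 genes. Top2a (ENSMUSG00000020914, chromosome 11 from 98992943 to 99024189), the topoisomerase that untangles sister chromatids, had 327 to 1609 CPM in high-score cells with a median of 927, and 0.898 to 285 CPM in low-score cells with a median of 22.9, a difference of 5.59. Ube2c, a ubiquitin-conjugating enzyme of the anaphase-promoting complex, had 157 to 881 CPM against 0.128 to 118 CPM, a difference of 5.18. Cenpe is one of the score genes, with 122 to 541 CPM against 0.159 to 42.9 CPM. High-score and low-score cells thus did not overlap in these 4 genes, but they were taken from the 2 ends of the score. Middle cells were spread over the ranges of both groups for Kif11 and Top2a. Kif11 had 251 CPM in cell 2 of pair 23 and 0.560 CPM in cell 2 of pair 24. Top2a had 696 CPM in cell 2 of pair 11 and 19.1 CPM in cell 2 of pair 5. Some lay between the ranges, such as cell 1 of pair 10 with 54.3 CPM of Kif11 and cell 2 of that pair with 308 CPM of Top2a. Low-score cells were spread from 0 or nearly 0 upward.

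Of the score genes themselves, Mki67 (ENSMUSG00000031004, chromosome 7 from 135689784 to 135716361) had 300 to 2356 CPM in high-score cells with a median of 994, and 1.85 to 350 CPM in low-score cells with a median of 67.4. Only 1 high-score cell lay within the low-score range for Mki67. Cenpa overlapped most, since 11 of 24 high-score cells lay above all low-score cells, whose highest value was 275 CPM. The 9 score genes differed by 4.19 for Cdk1 to 6.15 for Aurkb, with a median of 5.30. These values follow from the choice of cells.

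The other listed genes of the later wave were nearly all higher in high-score cells, which were chosen by 9 genes of the same wave. Among all 14463 genes 9.49% were higher and 2.81% lower by 1 or more. The counts for the lists of this wave follow in part from the choice of cells, and nothing is read from them. All 16 genes of G2 and mitotic entry outside the score were higher by 1 or more, with a median difference of 2.98. Among them Ccna2, cyclin A2, had 154 to 537 CPM with a median of 252 in high-score cells and 0.201 to 226 CPM with a median of 1.17 in low-score cells, a difference of 5.88. Ccnf, an F-box cyclin, differed by 5.53, the mitotic kinase gene Pbk by 4.48, the transcription factor gene Foxm1 by 4.39 and the phosphatase gene Cdc25c, which activates Cdk1, by 4.34. The smallest difference of this list was 1.99, in Cks1b. The median over the same 16 genes was 1.05 between high-score and middle cells and 2.12 between middle and low-score cells, so that middle cells stood nearer to high-score cells.

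All 20 genes for the spindle and chromosome condensation were higher by 1 or more, where 9.49% of all genes were, with a median difference of 4.92. After Kif11 came Kif2c, a microtubule depolymerase, with 5.94, Top2a, Dlgap5 with 5.39 and Hmmr with 5.35, the latter both spindle assembly factors. Of the condensin genes, Smc2 had the smallest difference of the list, 3.07. All 22 genes for the kinetochore and the spindle checkpoint were higher, with a median of 3.68, led by Cenpf with 5.77 and by the kinetochore scaffold gene Knl1 with 5.59. Sgo2a, which protects cohesion at centromeres, differed by 4.85, and Ndc80 and Nuf2, whose products grip microtubules, by 4.84 and 4.72. The checkpoint gene Bub3 had 126 to 695 CPM against 44.9 to 346 CPM and the smallest difference, 1.14.

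Of 16 genes for anaphase and cytokinesis, 15 were higher by 1 or more, where 9.49% of all genes were, and the median difference was 4.44. Kif20a, a kinesin of the central spindle, differed by 5.20, Racgap1, which positions the cleavage furrow, by 4.96, Incenp of the chromosomal passenger complex by 4.83 and the abscission gene Cep55 by 4.72. The exception was Pttg1, securin, which had 0.180 to 70.2 CPM in high-score cells with a median of 34.0, and 0.0892 to 140 CPM in low-score cells with a median of 23.7. Its difference was 0.66, and the ranges of both groups covered each other. Levels of the spindle, kinetochore and cytokinesis lists in every high-score cell were above those of every low-score cell, although not of every middle cell.

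**Figure D2:**
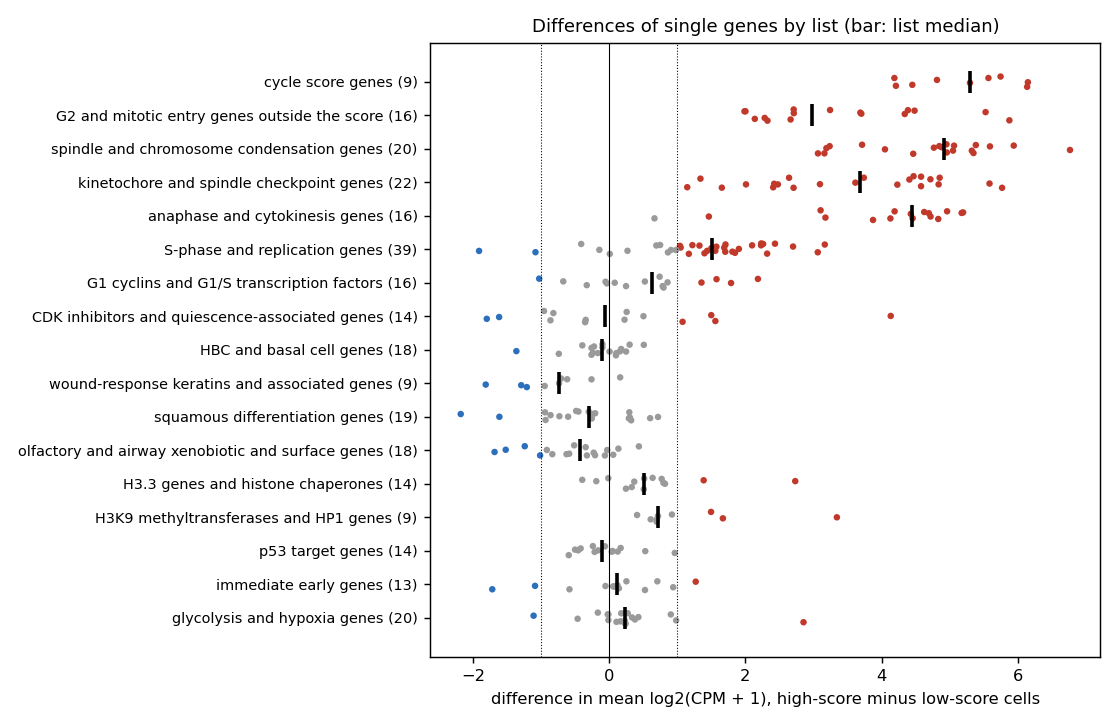
Difference in mean log2(CPM + 1) between 24 high-score and 24 low-score cells for each gene of 17 lists (number of genes in parentheses). Points are genes, red at 1 or more, blue at -1 or less and grey between, and the black bar is the list's median. The lists of mitotic genes lie at medians of 2.98 to 5.30, the S-phase list at 1.51 and the HBC list at -0.10.

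Promoters of mitotic genes are known for CCAAT boxes, bound by NF-Y, and for the cell cycle genes homology region (CHR), bound by DREAM and B-MYB complexes, whose core is TTTGAA or TTTAAA. These letters were searched on both strands in windows of 300 bases, from 250 before to 50 after the start, in the RefSeq table for GRCm38.p6. TTTAAA reads the same on both strands, and the motifs can overlap. Among all 32851 windows of the table, 37.4% held CCAAT, 17.9% TTTGAA, 13.2% TTTAAA and 10.7% both CCAAT and a CHR core. Of the 9 score genes 8 had a window in the table, and all 8 held both. Both were present in 6 of 10 windows of the G2 and mitotic entry list, in 11 of 17 of the spindle list, in 8 of 19 of the kinetochore list and in 7 of 14 of the cytokinesis list. For the S-phase list it was 4 of 32, and for the HBC list 3 of 12. A match of letters is not evidence that a factor binds.

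Of the genes that were higher in high-score cells, 6 are shown for the placing of these motifs, and of those that were lower, Krt23, Tent5a and Mxd4. They were picked as examples, with Aurka and Mxd4 as those that differ from the other genes shown beside them. Each line gives the 120 bases before the start of the gene as read 5′ to 3′ on its own strand, with every CCAAT box and CHR core, or its reverse complement, in capitals. Top2a lies at chr11:99024190-99024309 and Cdc20 at chr4:118437344-118437463, both on the minus strand. Kif11 lies at chr19:37376262-37376381 and Plk1 at chr7:122159315-122159434, both on the plus strand. Mki67 at chr7:135716380-135716499, Krt23 at chr11:99493121-99493240 and Tent5a at chr9:85327151-85327270 are on the minus strand, as are Aurka at chr2:172370571-172370690 and Mxd4 at chr5:34187711-34187830.
Top2a: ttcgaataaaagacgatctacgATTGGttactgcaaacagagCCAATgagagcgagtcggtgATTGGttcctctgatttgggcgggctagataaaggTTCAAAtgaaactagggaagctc
Kif11: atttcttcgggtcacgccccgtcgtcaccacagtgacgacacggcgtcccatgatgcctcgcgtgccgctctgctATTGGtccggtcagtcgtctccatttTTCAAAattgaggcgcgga
Cdc20: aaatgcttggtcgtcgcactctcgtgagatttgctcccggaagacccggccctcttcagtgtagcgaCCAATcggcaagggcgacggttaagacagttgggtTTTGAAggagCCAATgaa
Plk1: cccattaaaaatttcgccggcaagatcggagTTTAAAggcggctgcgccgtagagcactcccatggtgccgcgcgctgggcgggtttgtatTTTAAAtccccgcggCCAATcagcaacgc
Mki67: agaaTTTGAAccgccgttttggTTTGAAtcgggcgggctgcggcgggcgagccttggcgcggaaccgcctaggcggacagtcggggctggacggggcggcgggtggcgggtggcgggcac
Aurka: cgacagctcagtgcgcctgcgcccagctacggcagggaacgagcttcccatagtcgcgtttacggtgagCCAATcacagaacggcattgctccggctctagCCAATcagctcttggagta
Krt23: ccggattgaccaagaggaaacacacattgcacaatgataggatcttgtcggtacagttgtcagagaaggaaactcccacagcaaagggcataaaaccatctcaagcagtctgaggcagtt
Tent5a: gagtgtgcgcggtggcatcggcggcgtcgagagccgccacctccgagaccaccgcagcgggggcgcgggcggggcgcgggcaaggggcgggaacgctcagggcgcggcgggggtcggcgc
Mxd4: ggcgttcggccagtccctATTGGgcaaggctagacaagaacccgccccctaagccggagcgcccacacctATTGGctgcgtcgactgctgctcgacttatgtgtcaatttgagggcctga
In Top2a, Kif11 and Cdc20, a CHR core lies 17, 13 and 12 bases before the start, downstream of the nearest CCAAT in Top2a and Kif11. In Plk1 the nearest CHR core lies at 23 bases and in Mki67 at 92 bases. Aurka, and likewise Cenpe, which is not shown, held CCAAT but no CHR core within the 250 bases before the start. In Krt23 and Tent5a none of the motifs lay within these bases, whereas Mxd4 held CCAAT at 2 places and Samd9l both a CCAAT and a CHR core. Among the 10 genes furthest below 0 outside the lists, 9 had a window, of which 2 held CCAAT and 1 held both.

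Genes of S phase did not follow the same order. Of 39 genes for DNA replication and the nucleotide supply, 28 were higher in high-score than in low-score cells by 1 or more, with a median difference of 1.51, and 2 were lower. By the same measure 9.49% of all genes were higher and 2.81% lower. The middle cells, however, were highest: for 32 of the 39 genes the mean was higher in middle cells than in either other group, and the median difference of high-score from middle cells was -0.61. The level of the list, its mean log2(CPM + 1) in a cell, was 4.30 to 7.55 in middle cells with a median of 6.53, 4.62 to 6.96 in high-score cells with a median of 5.66, and 1.80 to 6.93 in low-score cells with a median of 4.31. In 41 of 48 middle cells it lay above the median of the high-score cells.

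The low-score cells fell apart in this list. In 6 of them, both cells of pairs 6 and 26 and 1 cell each of pairs 5 and 43, the level was 6.77 to 6.93, and each of these cells had at least 10 counts for 37 or more of the 39 genes. The other 18 low-score cells had levels of 1.80 to 5.34, with none in between. The number of genes with 10 counts did not set the 6 cells apart. Cell 1 of pair 43 and cell 2 of pair 17, with levels of 4.98 and 4.43, also had 37 such genes. Only 1 high-score cell, of pair 47, exceeded 6.77, while 19 of 48 middle cells did. A low score therefore did not mark cells without transcripts of cell cycle genes, and the groups are named here by their score and not as cycling and resting cells. These 6 cells are part of the low-score group in every value given.

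**Figure D3:**
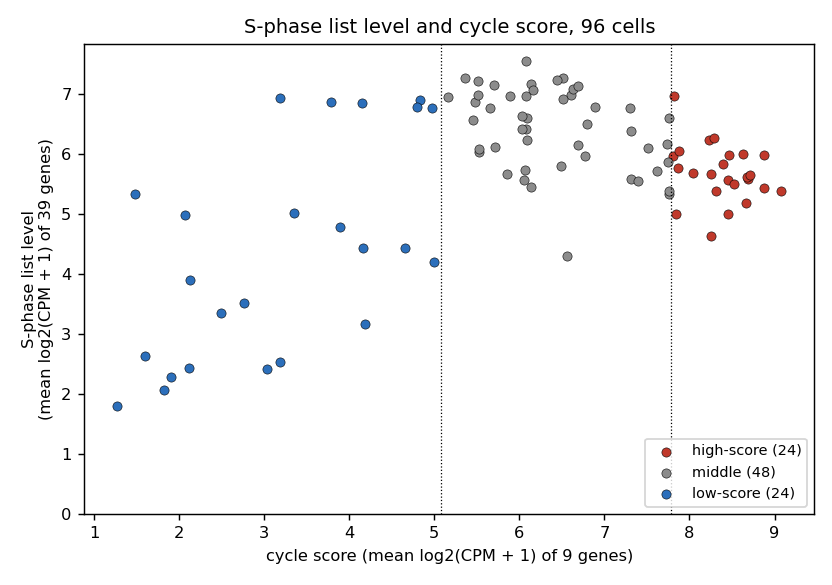
Level of the S-phase list (mean log2(CPM + 1) of 39 genes) against the cycle score (mean log2(CPM + 1) of 9 genes) in 96 cells, coloured by group, with dotted lines at the borders of the groups. Middle cells reach the highest levels, high-score cells lie at 4.62 to 6.96, and 6 low-score cells at 6.77 to 6.93 stand above the other 18.

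Single S-phase genes differed in the same way. Clspn, claspin of the replication checkpoint, and Fen1, the flap endonuclease, were among the genes furthest above low-score cells, with differences of 3.17 and 3.06, followed by Rfc4, Pola1 with 2.43 and Rfc5 with 2.32, which encode clamp loader subunits and the catalytic subunit of the primase polymerase. Ung, the uracil DNA glycosylase, went the other way. It had 0 to 20.3 CPM in high-score cells with a median of 0.0782, 0 to 93.5 CPM in low-score cells with a median of 2.31, and a median of 8.79 CPM in middle cells. At least 10 counts of Ung were present in 6 of 24 high-score, 33 of 48 middle and 13 of 24 low-score cells, and the difference between high-score and low-score cells was -1.91. Cdc6, which loads the replicative helicase in G1, had a median of 0.356 CPM in high-score, 34.1 CPM in middle and 2.33 CPM in low-score cells and a difference of -1.08. The E-type cyclins of the G1/S transition, Ccne1 and Ccne2, differed by -0.41 and -0.15, with middle medians of 42.9 and 26.9 CPM against 11.0 and 3.25 CPM in high-score cells. High-score and low-score cells were thus both below middle cells at their medians for these 4 genes.

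**Figure D4:**
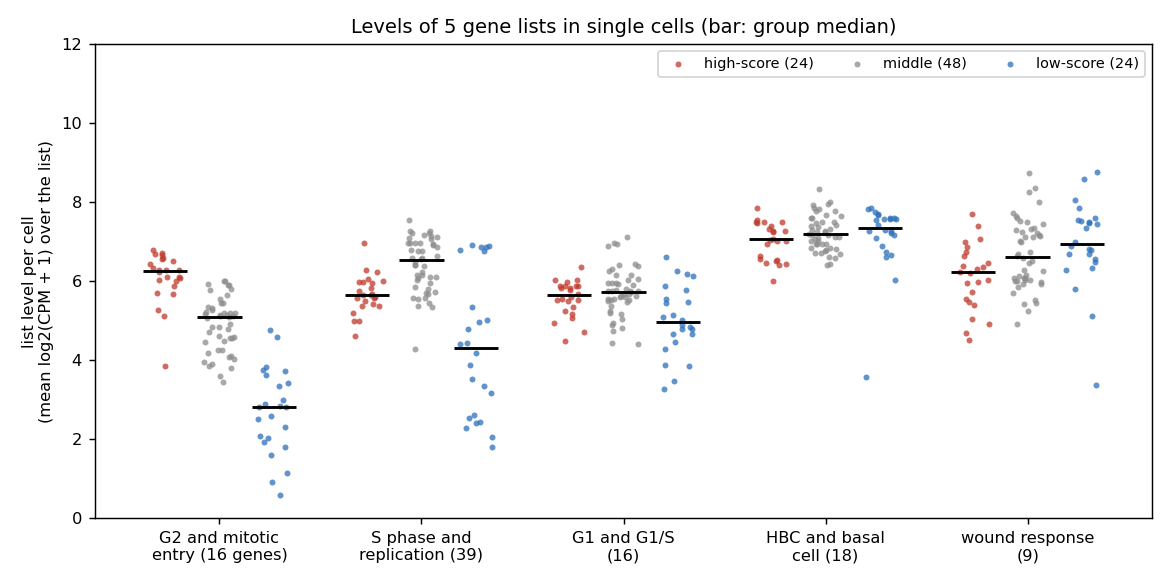
Levels of 5 gene lists (mean log2(CPM + 1) over the genes of the list) in 24 high-score, 48 middle and 24 low-score cells. Points are cells and black bars group medians. The G2 and mitotic entry level falls from high-score to low-score cells, with medians of 6.26, 5.08 and 2.82, the S-phase level is highest in middle cells, and the HBC levels overlap, with 1 low-score cell at 3.56 apart from the rest.

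Among 16 G1 cyclins, partner kinases, pocket proteins and E2F factors, 4 were higher by 1 or more, 1 was lower and the median difference was 0.63. Over all genes 9.49% were higher and 2.81% lower by 1 or more. Rbl1 (p107) differed by 2.18, and E2f8, E2f4 and E2f3 by 1.79, 1.58 and 1.35. The D-type cyclins, which couple mitogens to the cell cycle, were not higher. Ccnd2 had 7.65 to 2593 CPM in high-score cells with a median of 611 and 185 to 2679 CPM in low-score cells with a median of 1009, a difference of -1.03, and Ccnd1 had medians of 1144 and 1532 CPM and a difference of -0.68. On the spike-in scale these were -0.65 and -0.29. Myc differed by -0.33 on CPM and by -0.01 on the spike-in scale.

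Inhibitors of cyclin-dependent kinases were divided. Of 14 inhibitors and genes associated with quiescence that passed the filter, 4 were higher and 2 lower by 1 or more, where 9.49% and 2.81% of all genes were. Their median difference was -0.06, which turned to 0.25 on the spike-in scale. Cdkn2d, which encodes the CDK4/6 inhibitor p19, differed most (ENSMUSG00000096472, chromosome 9 from 21288410 to 21291407). It had 0.218 to 125 CPM in high-score cells with a median of 46.8, and 0 to 50.5 CPM in low-score cells with a median of 0.197. At least 10 counts were present in 23 of 24 high-score cells (95.8%, exact 95% interval 78.9% to 99.9%) and in 8 of 24 low-score cells (33.3%, 15.6% to 55.3%). The difference was 4.13. Cdkn2c (p18) differed by 1.56, Cdkn1b (p27) by 1.50 and Cdkn2b (p15) by 1.08. Lower in high-score cells were Txnip, the thioredoxin-interacting protein, with -1.80, and the antiproliferative gene Btg2 with -1.62. Cdkn1a (p21), the p53-induced inhibitor, had 1.25 to 1749 CPM with a median of 62.9 in high-score cells and 0.818 to 2757 CPM with a median of 152 in low-score cells. Its difference was -0.96, and its SDs of 2.60 and 2.85 over cells were far larger than that.

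The identity genes of HBCs mostly differed by less than 1 between the groups, as did most of all genes. Of 18 HBC and basal cell genes, none was higher by 1 or more and only Krt15 was lower. Among all 14463 genes 9.49% were higher and 2.81% lower, and nothing is read from the count. The median difference of the 18 genes was -0.10 on CPM and 0.24 on the spike-in scale, or -0.11 after the shift of all genes was taken off. Trp63 (ENSMUSG00000022510) had 47.8 to 735 CPM in high-score cells with a median of 162, and 36.4 to 578 CPM in low-score cells with a median of 201. Its difference was -0.10, with SDs of 0.87 and 0.96. Krt5 had medians of 2436 and 2673 CPM and a difference of 0.10, and Krt14 medians of 3300 and 3118 CPM and a difference of 0.25. Krt15, a keratin of basal cells, had a median of 0.275 CPM with a highest value of 51.4 in high-score cells, and a median of 1.12 with a highest of 1622 in low-score cells, a difference of -1.37. The sisters of pair 15, both low-score cells, had 1622 and 1570 CPM and weigh heavily in this difference. Over the alternatives described below, the Krt15 difference ranged from -1.72 to -0.40. Pax6, Fzd7 and Icam1 differed by 0.51, 0.30 and -0.10.

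Cell 2 of pair 4 stood apart. It had the lowest score of all, 1.28, an HBC level of 3.56 where the next lowest of the 96 cells had 6.00, and 36.4 CPM of Trp63, 175 CPM of Krt5 and 17.9 CPM of Krt14. It also had the highest level of the xenobiotic and surface gene list of all 96 cells, 9.10, and the most Cd68, a macrophage marker, 287 CPM. The sum over all 10 immune, stromal, endothelial and glial markers was 287 CPM as well, so that the others added almost nothing. In high-score cells this sum reached 167 CPM. Without cell 2 of pair 4, 1350 genes were higher and 443 lower, and the median of the HBC list became -0.24.

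Most wound-response and differentiation genes differed by less than 1 between the groups, as did most of all 14463 genes. Of all genes, 9.49% were higher and 2.81% lower by 1 or more. The wound-response and differentiation genes past that threshold were lower in high-score cells. Of 9 keratins and growth factors of wound response, 3 were lower by 1 or more and 8 were below 0, with a median difference of -0.74, and of -0.38 on the spike-in scale. Krt23 (ENSMUSG00000006777, chromosome 11 from 99477974 to 99493137), a stress-related keratin, had 0.490 to 476 CPM in high-score cells with a median of 37.7, and 0.462 to 1300 CPM in low-score cells with a median of 167. The difference was -1.82, against SDs of 2.34 and 2.47 over cells, and 19 of 24 high-score cells lay at or below the low-score median. The EGF receptor ligands Hbegf and Areg differed by -1.29 and -1.21, Krt16 by -0.95, Yap1, the Hippo effector, by -0.74 and Krt6a by -0.62. Krt17 was the single gene above 0, at 0.16.

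Of 19 squamous differentiation genes, 2 were lower and none higher, with a median of -0.30, where 2.81% of all genes were lower and 9.49% higher. Tgm1 (ENSMUSG00000022218), the transglutaminase that cross-links the cornified envelope, had a median of 0.464 CPM and a highest value of 152 in high-score cells, and a median of 9.66 and a highest of 1784 in low-score cells, a difference of -2.18. Sprr1a, a substrate of such cross-links, had medians of 29.4 and 103 CPM and a difference of -1.61. The desmosomal gene Dsc2, Cnfn and Ppl differed by -0.94, -0.94 and -0.86. Among 18 genes for xenobiotic metabolism and surface proteins of the olfactory and airway epithelium, 4 were lower and none higher, with a median of -0.43. Cyp2f2, a cytochrome P450, differed by -1.69, the airway protease gene Tmprss11d by -1.52, Aldh1a3, which makes retinoic acid, by -1.24 and the glutathione transferase Gsto1 by -1.02. Gsto1 had 871 to 7362 CPM in high-score cells with a median of 2124 and 764 to 18991 CPM in low-score cells with a median of 4485. On the spike-in scale the median of the list was -0.04. The list did not go down with the score throughout, since its median difference of high-score from middle cells was 0.36, and its level was higher in the sister with the higher score in 7 of the 11 pairs whose sisters were in different groups.

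H3.3, the replication-independent histone H3, is encoded by H3f3a and H3f3b. H3f3a had 169 to 687 CPM in high-score cells with a median of 382 and 198 to 887 CPM in low-score cells with a median of 383, a difference of -0.01. H3f3b had 776 to 1866 CPM with a median of 1206, against 214 to 1648 CPM with a median of 832. Its difference was 0.64, with SDs of 0.34 and 0.62, and 23 of 24 high-score cells lay above the low-score median. The 2 genes thus differed in whether they went with the score. Of 14 H3.3 genes and histone chaperones, 2 were higher by 1 or more, Asf1b with 2.73, the histone H3-H4 chaperone of dividing cells, and Dek with 1.39. Among all genes 9.49% were higher by as much, and nothing is read from the count. Daxx, Atrx and Hira, which act in the deposition of H3.3, differed by 0.77, -0.19 and 0.51.

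All 9 genes for H3K9 methyltransferases and HP1 proteins were above 0, with a median of 0.72, and 3 were higher by 1 or more. The median over all genes was 0.10, and 9.49% of them were higher by 1 or more. Suv39h1 (ENSMUSG00000039231, chromosome X from 8061171 to 8074760), which trimethylates H3K9 in heterochromatin, had 0.365 to 185 CPM in high-score cells with a median of 69.2, and 0.0669 to 127 CPM in low-score cells with a median of 0.720. Its difference was 3.34, with SDs of 1.62 and 2.58, and 23 of 24 high-score cells lay above the low-score median. Middle cells had a median of 58.6 CPM, close to that of high-score cells. Suv39h2 differed by 1.67, and Cbx5, which encodes HP1 alpha, by 1.49, with all 24 high-score cells above the low-score median. Kdm1a, a histone demethylase, differed by 0.60 and Rps6, a ribosomal protein gene, by 0.09. Sox9, a gene of glands and supporting cells, differed by -0.36, with medians of 5.37 and 3.06 CPM.

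**Figure D5:**
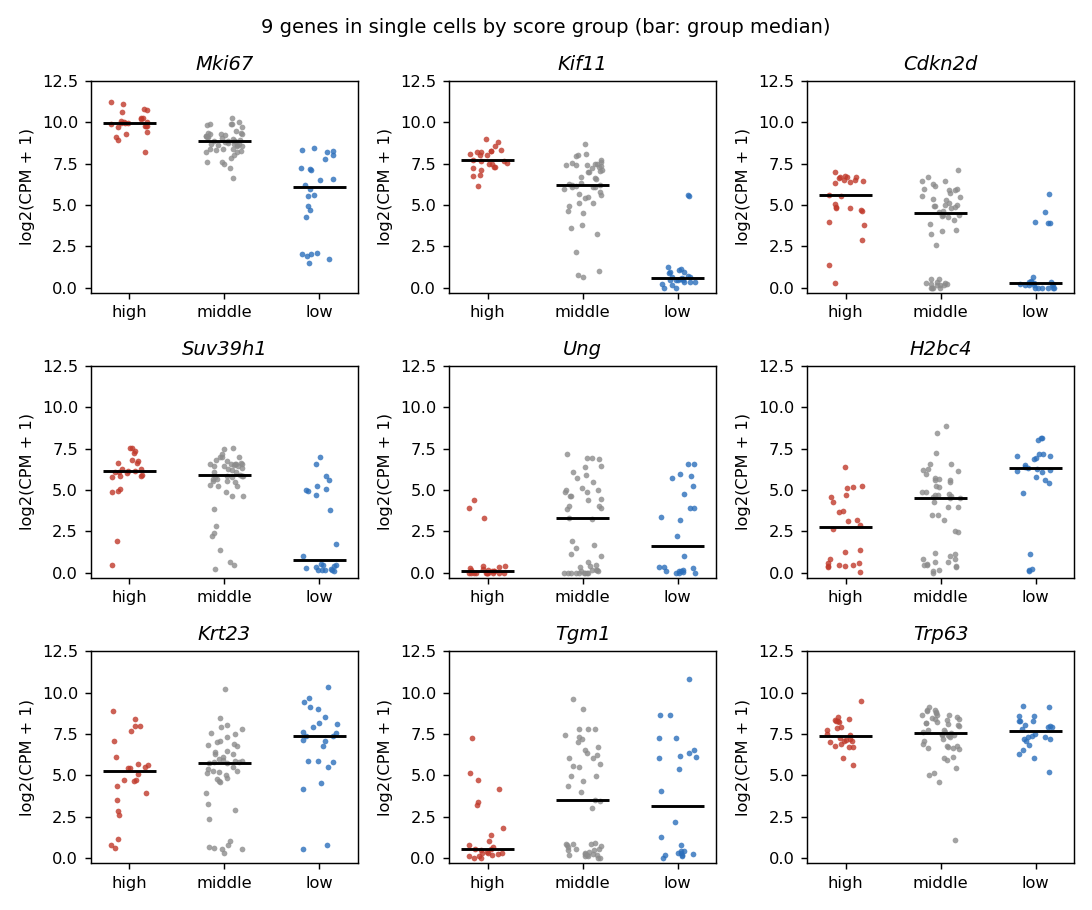
log2(CPM + 1) of 9 genes in 24 high-score, 48 middle and 24 low-score cells. Points are cells and black bars group medians. Kif11 does not overlap between high-score and low-score cells, Cdkn2d and Suv39h1 are higher in high-score cells, H2bc4, Krt23 and Tgm1 lower, Ung is low in high-score cells and highest at its median in middle cells, and Trp63 overlaps fully.

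Stress and metabolic genes showed no common direction. None of 14 p53 target genes differed by 1 or more, where 9.49% of all genes were higher and 2.81% lower. Their median was -0.11 on CPM and 0.18 on the spike-in scale. The largest were Mdm2 with 0.96 and Eda2r with -0.60, and Trp53inp1 differed by -0.46. Of 13 immediate early genes, Nr4a1 was higher with 1.27, Atf3 with -1.72 and Dusp1 with -1.09 were lower, and the median was 0.12. Of 20 glycolysis and hypoxia genes, Car9, the hypoxia-induced carbonic anhydrase, was higher with 2.85 and Ndrg1 lower with -1.11, and the median was 0.23. Car9 had 0.612 to 329 CPM in high-score cells with a median of 73.2, and 0.0446 to 318 CPM in low-score cells with a median of 4.31.

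Markers of other cell types were sparse. Of 12 genes of globose basal cells and neurons 2 passed the filter on low counts, of 11 genes of sustentacular, microvillous and gland cells 1, and of 10 genes of immune, stromal, endothelial and glial cells 1. Their summed levels were 0 to 159, 0 to 162 and 0 to 167 CPM in high-score cells and 0 to 53.1, 0 to 167 and 0.0848 to 287 CPM in low-score cells. Of the first list Kit and Stmn2 had no count in any of the 96 cells, of the second Ermn and Muc5b, and of the third Cd3e, Cdh5 and Sox10. The part of these markers in the differences was not tested. The genes that passed were Gap43, Tubb3, Sox9 and Cd68. Tubb3, a tubulin of neurons that also occurs in dividing cells, had at least 10 counts in 13 of 24 high-score, 35 of 48 middle and 5 of 24 low-score cells. Its difference was 1.71, and it turned to -0.24 with the 2 highest and 2 lowest cells of each set.

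Outside the lists, the 10 genes furthest above low-score cells were Cdca2, Aspm, Kif22, Kifc1, Cenpl, Prr11, Esco2, Shcbp1, Pif1 and Pimreg, with differences of 4.52 to 5.92. Most of them are known genes of mitosis. Cdca2 recruits protein phosphatase 1 to chromatin, Aspm acts at spindle poles, Kif22 and Kifc1 are kinesins, Cenpl is a kinetochore subunit and Esco2 an acetyltransferase of cohesion. Cdca2 had 18.6 to 379 CPM in high-score cells with a median of 144, and 0 to 75.1 CPM in low-score cells with a median of 0.294. Prr11 was nearly absent from low-score cells, with a highest value of 0.348 CPM and at least 10 counts in 2 of 24 cells (8.33%, exact 95% interval 1.03% to 27.0%), against 23 of 24 high-score cells (95.8%, 78.9% to 99.9%) and 32 of 48 middle cells. Only 5 low-score cells had at least 10 counts of Aspm. All 5 of these genes that had a window in the promoter table held both CCAAT and a CHR core.

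The 10 genes furthest below were Ccdc9b, H2bc4, Mxd4, Sestd1, Vps50, Tent5a, Cers3, Samd9l, Piezo1 and Trex2, with differences of -3.49 to -2.20. Ccdc9b (ENSMUSG00000045838, chromosome 2 from 118754158 to 118762661) had 0 to 27.6 CPM in high-score cells with a median of 0.282, and 0.139 to 285 CPM in low-score cells with a median of 56.8. All 24 high-score cells lay below the low-score median, and middle cells, with a median of 30.8 CPM, lay between. Mxd4 (ENSMUSG00000037235), a member of the MAD family of MYC antagonists, had a median of 0.262 CPM in high-score and 28.8 CPM in low-score cells, and at least 10 counts in 11 of 24 cells (45.8%, exact 95% interval 25.6% to 67.2%) against 20 of 24 cells (83.3%, 62.6% to 95.3%). Cers3 makes ceramides of the epidermal barrier, Piezo1 is a mechanically activated ion channel, Samd9l is an interferon-induced gene and Trex2 a DNA exonuclease of keratinocytes. For Piezo1 the middle median, 42.2 CPM, was like that of low-score cells, 37.6 CPM, and for Samd9l and Trex2 it was like that of high-score cells, at 0.0402 and 0.304 CPM.

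H2bc4 (ENSMUSG00000018102, chromosome 13 from 23684199 to 23692908), a histone H2B gene, had 0.0544 to 84.8 CPM in high-score cells with a median of 5.91, 22.0 CPM at the median of middle cells, and 0.0964 to 287 CPM in low-score cells with a median of 79.0. Its difference was -3.02, and 23 of 24 high-score cells lay at or below the low-score median. Histone genes of this family are near-identical copies, so that reads can be split between them, and their mRNAs largely lack the poly(A) tail by which RNA was captured here.

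Within divisions, 11 pairs had sisters in different groups. In the sister with the higher score, the level of the spindle list was higher in 9 of 11 pairs, that of the cytokinesis list in 9, of the kinetochore list in 8, of the S-phase list in 8 and of the G2 and mitotic entry list in 7. The HBC level was higher in 5 of 11 and the wound-response level in 3, with median differences of -0.10 and -0.77. The level of immediate early genes was lower in the sister with the higher score in 10 of 11 pairs, by a median of 0.27. Of the 20 lists this was the most one-sided after the score genes, and some of its differences were small, such as -0.07 in pair 5. Between the groups its median difference was 0.12, with median levels of 5.28 in high-score and 5.30 in low-score cells. All these counts of pairs rest on sisters told apart by the score.

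Pair 17 holds the only sisters at opposite ends. Its cell 1 had a score of 8.39 and its cell 2 a score of 4.16. Cell 1 had 937 CPM of Mki67, 1074 of Top2a, 419 of Ccna2 and 110 of Kif11, and cell 2 had 45.4, 22.9, 0.275 and 0.597 CPM. Their S-phase levels were 5.82 and 4.43. Cell 2 had 1224 CPM of Cdkn1a against 106 CPM in cell 1, 265 CPM of Trp53inp1 against 10.3 CPM and a level of the p53 target list of 7.00 against 4.60. It also had 266 CPM of H2bc4 against 7.97 CPM and 57.0 CPM of Mxd4 against 0.704 CPM. Trp63 was 132 CPM in cell 1 and 78.8 CPM in cell 2. No other pair repeats this contrast, so that it stands without a replicate. The p53 target level mostly went the other way between sisters in different groups. It was higher in the sister with the higher score in 7 of 11 such pairs, with a median difference of 0.16. In pair 46, the pair furthest apart, cell 2 had 558 CPM of Mki67, 1.14 of Trp63 and 791 of Tgm1, and cell 1 had 1.85, 567 and 1784 CPM.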

How the data were processed

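The transcriptomes of 96 single HBC daughter cells from 48 divisions were analysed. The authors trimmed reads with Trimmomatic 0.39, used STAR 2.7.11a for alignment to GRCm38 plus ERCC sequences (Ensembl release 100 genes), and StringTie 2.2.1 for quantification. The deposited table holds raw counts per gene and cell for 55487 genes and 92 ERCC transcripts, without normalization. The deposited TPM of each cell, scaled for gene length and library size by StringTie, were used for gene coordinates and as an alternative.

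Counts were divided by the cell's total over genes and given as CPM, with a pseudocount of 1 on the log2 scale. Where a symbol was shared by several genes (114 symbols), the gene with the most counts was taken. Genes with at least 10 counts in at least 10% of cells were compared. For the spike-in scale, counts were divided by size factors from those 22 ERCC transcripts with counts in every cell, as medians of ratios, and by 1 constant that puts them on the scale of CPM. The groups were 24 highest and 24 lowest cells by score. The depth of 29454150 to 44849003 counts per cell limits sampling error for all but low genes, while amplification from single cells adds error that counts do not show. For shares of cells, exact 95% intervals (Clopper-Pearson) are given, and these hold only the error of counting. Cells were picked singly by pipette, and no doublet caller was run. No tests were made, because the groups were chosen on the measured values and the cells are 1 sample.

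The members, the 20 gene lists and the promoter motifs were chosen with earlier results of these data known. The genes named were the 9 score genes, genes that the study names for these cells, the 10 genes furthest above and below 0 outside the lists, and up to 5 genes furthest above and below 0 in each list. Bub3, Pttg1, Smc2, Cks1b, Krt17, Daxx, Atrx and Hira as members of lists, and the families in the closing section were chosen after values were seen. The difference calculation was tested on simulated counts with known differences. Alternatives changed the scaling, the pseudocount, the filter, the group size, the summary over cells, each score gene, the unit from cells to pairs, and the sets. Calculations used Python 3.11.15, numpy 2.4.6, scipy 1.17.1, pandas 2.3.3 and matplotlib 3.10.9.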

Additional observations from a re-analysis of the deposited data

How the results depend on the processing

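The groups rest on measured values of cells without known mice, so the alternatives below change numbers and do not test them. Higher and lower genes numbered 1373 and 406. With ERCC scaling they were 2363 and 210, with a pseudocount of 10, which shrinks differences of low genes, 353 and 45, and with 12 against 12 cells 2250 and 851. Lower genes were 247 with 32 against 32 cells and 666 by the difference of medians. Over the other alternatives, higher genes ranged from 977 to 1784 and lower genes from 277 to 497. The medians of the score, G2 and mitotic entry, spindle, kinetochore and cytokinesis lists became 3.84, 1.75, 2.93, 1.88 and 2.88 with a pseudocount of 10 and 6.51, 4.55, 5.98, 4.57 and 5.33 with 12 against 12 cells. They were 4.08, 3.50, 2.77 and 3.23 for the score, spindle, kinetochore and cytokinesis lists with the 2 highest and 2 lowest cells of each set, and 5.04, 5.91 and 4.82 for the G2, spindle and kinetochore lists by the difference of medians. The H3K9 list became 1.44 with 12 against 12 cells. Of 680 values of list medians under alternatives, 662 moved by less than the SD over cells. Of 5610 values of 165 named genes, 5554 did. Values on both sides of 0 occurred for 49 of these genes and 7 of the 20 list medians, and Tubb3, -0.24 with balanced sets, was the 1 such gene that differed by 1 or more as reported. Ranking on ERCC-scaled counts kept 20 of 24 high-score and 23 of 24 low-score cells. Sisters lay at opposite ends of the score in 1 pair only, and with pairs in place of cells, 12 against 12, 1451 genes were higher and 354 lower. Genes with fewer than 10 counts are at the limit of this depth. The alternative without cell 2 of pair 4 was added after the data were seen.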

Other observations

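Families of genes, grouped by their symbols after values were seen, were described in the same way. Of 54 replication-dependent histone genes that passed the filter, 20 were higher in high-score cells by 1 or more and 2 were lower, H2bc4 and H2bc8, with -3.02 and -1.52. The largest were the H2A genes Hist1h2ap with 3.37 and Hist1h2ao with 3.26, which had medians of 74.7 and 67.9 CPM in high-score, 73.9 and 65.2 in middle and 6.54 and 5.79 in low-score cells. These genes have near-identical copies, so that single members are uncertain. The summed level of the family was 77.6 to 842 CPM in high-score cells with a median of 348, 63.8 to 1493 CPM with a median of 383 in middle cells, and 11.5 to 438 CPM with a median of 183 in low-score cells. Middle cells thus had the highest median. Of 20 tubulin and gamma-tubulin complex genes, 10 were higher and none lower, and their summed level was 7254 to 16021 CPM in high-score cells with a median of 11102, against 620 to 10498 CPM with a median of 5679. Of 32 kinesin genes 14 were higher. Of 21 centromere protein genes 18 were, but these include Cenpe and Cenpa, by which the cells were chosen, and without them it was 16 of 19. Over all genes 9.49% were higher in these cells, which were chosen by related genes, and nothing is read from the counts.

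Genes for protein synthesis and respiration differed by less than 1, as did most of all genes. None of 81 cytosolic ribosomal protein genes, 36 mitochondrially encoded genes and 86 nuclear genes of the respiratory chain differed by 1 or more. Over all genes 9.49% were higher and 2.81% lower by as much, and nothing is read from the counts. The medians of the 3 families were 0.12, 0.01 and 0.05, where the median over all genes was 0.10. The summed level of the ribosomal protein genes had medians of 50744 CPM in high-score, 51831 in middle and 49733 in low-score cells.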
